A study of Homo sapiens with 3 samples.

Results

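The GC-rich high-numbered microRNA entries are the probes for human microRNAs with a registry number of 1200 or more and a target sequence of which at least 75% of the bases are G or C. The rule took 89 of the 2019 microRNA probes of the array, or 4.41%, and it used sequence and name only, not signal. None of the entries it leaves out by name (miR-1246, miR-1260a, miR-1260b, miR-1973, miR-4454, miR-4521 and miR-5100) reached that base content. The cells were MCF12A, an established, immortalized and non-tumorigenic line of human mammary epithelium, grown in DMEM/F12 with horse serum, epidermal growth factor, hydrocortisone, insulin and cholera toxin. One group was unexposed control cells, one was exposed to ethanol for 4 weeks and one to acetaldehyde, the first oxidation product of ethanol, for 4 weeks. The labels disagree on the dose: 2.5 mM of ethanol in the sample characteristics is 2.5% in the treatment protocol, and 1 mM of acetaldehyde is 1%. The treatment protocol also mentions a clone selected in soft agar and exposed to ethanol, which no label places on an array, and the source of all 3 samples is given as a monolayer. Each group had 1 array (n = 1), so there is no p-value and no replicate SD, and no difference below has a replicate check. Each log2 difference carries as its error (±) the SD of that difference between the 4 places where a probe was spotted, which covers spot printing and reading only.

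A microRNA is cut from a hairpin precursor, is loaded into an Argonaute protein and lowers the translation or stability of messenger RNAs that pair with its seed, the bases 2 to 8 from the 5′ end. Entries with a shared seed are grouped as a family because they can pair with the same sites. High-numbered entries joined the public registry late, mostly from deep sequencing of small RNA, and many rest on less evidence than the older entries. Some of them are mirtrons, short introns that fold into a hairpin once spliced out and so bypass the first cut by Drosha. The assay added a poly(A) tail to the 3′ ends of total RNA and stained a tag on that tail, so any RNA with enough complementarity to a probe can give signal.

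The sequences below are the array's target sequences, 5′ to 3′, with the seed in capitals. Of the 89 entries, 75 matched a RefSeq mature microRNA (GRCh38.p14) by name and sequence, 2 by sequence under another name, and 7 only by the hairpin gene's symbol. The first set shows bright entries that differed from control by less than 1.5-fold after ethanol, miR-3665 only once a dark spot is left out, and in which G far outnumbers C.
miR-6089: gGAGGCCGggguggggcggggcgg
miR-6090: gGGGAGCGaggggcggggc
miR-4516: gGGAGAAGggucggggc
miR-3665: aGCAGGUGcggggcggcg

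The second set shows entries that exceeded control by at least 1.5-fold after ethanol, most of which hold more C.
miR-4497: cUCCGGGAcggcugggc
miR-3178: gGGGCGCGgccggaucg
miR-4707-5p: gCCCCGGCgcgggcggguucugg
miR-4508: gCGGGGCUgggcgcgcg
miR-1237-5p: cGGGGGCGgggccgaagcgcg
miR-1908: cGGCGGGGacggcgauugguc
miR-4486: gCUGGGCGaggcuggca
miR-2861: gGGGCCUGgcggugggcgg

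The third set shows entries that stood below control on both exposed arrays, among them pairs with a shared seed or a long shared run. Some of these differences lay within the spot SD, such as that of miR-4507 with ethanol (-0.10 ± 0.17).
miR-4651: cGGGGUGGgugaggucgggc
miR-6722-3p: uGCAGGGGucgggugggccagg
miR-3620-5p: gUGGGCUGggcugggcugggcc
miR-4507: cUGGGUUGggcugggcuggg
miR-1268a: cGGGCGUGgugguggggg
miR-1268b: cGGGCGUGguggugggggug

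The last set shows entries in which C makes up at least 50% of the bases, or G and C stand near balance, and which were read higher on the acetaldehyde array.
miR-1228-3p: uCACACCUgccucgcccccc
miR-4749-3p: cGCCCCUCcugcccccacag
miR-3181: aUCGGGCCcucggcgccgg
miR-4783-5p: gGCGCGCCcagcucccgggcu

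The entries share more than the rule asked for. Their targets had a median length of 21 bases (17 to 26) against 22 over all probes, and a median G plus C of 80% against 50%. G outweighed C, with a median G content of 52.2% and a median C content of 31.8%, against 27.3% and 21.7% over all probes. G made up at least 50% of the bases in 51 entries, C did so in 13, and neither did in 25. The run GGGG, searched on the target strand only, stood in 49 of the 89 targets (55.1%) and in 9.91% of all 2019, and the run CCCC in 17 (19.1%) and in 5.35%. By arm, 17 were named 5p, 20 were named 3p and 52 carried no arm. Of 77 entries with a mature position in RefSeq, 65 overlapped a gene that is not a microRNA gene and 58 a protein-coding gene. Arm names and overlaps were not counted over all probes, so neither is shown to be particular to the entries. Overlap was called from position alone, on either strand, and a gene named below as holding an entry is meant in that sense. Whether these overlaps are exonic or intronic, or on the same strand as the gene, was not analysed here.

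The 3 arrays differed in background and in scale. The 1368 empty spots had a median intensity of 106 (control), 148 (ethanol) and 65.8 (acetaldehyde), so the level a probe had to pass to be called detected (that median plus 3 SDs) was 146, 243 and 98.8. All 5 epithelial and basal mammary markers (miR-205-5p, miR-200c-3p, miR-141-3p, miR-203a and miR-31-5p) were detected on every array, which goes with the labelled cell type. Of 4 fibroblast markers 1 was detected on the control and ethanol arrays and 3 on the acetaldehyde array, and of 4 blood markers 0, 0 and 2. Their summed normalized intensities lay between 545 and 603 for the fibroblast list and between 377 and 431 for the blood list, with miR-199a-3p, miR-142-3p and miR-451a not detected anywhere. Before normalization the 30 detected spike probes, synthetic RNA meant to be equal on every array, differed from control by a median of -0.08 (ethanol) and 0.64 (acetaldehyde) on the log2 scale. The part of background and scale in the differences below was not tested beyond the alternative scalings given with them.

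Of the 89 entries, 83 (93.3%) were detected in control cells, 48 (53.9%) after ethanol and 89 (100%) after acetaldehyde. Over all probes the shares were 38.4%, 17.2% and 70.8%, so the entries followed the detection level of each array at a higher share. All 48 entries detected on the ethanol array were detected on the other arrays too. A further 35 were detected on 2 arrays and 6 on the acetaldehyde array alone. By base content, 41 of the 48 were G-rich, 6 were in neither class and 1, miR-1228-3p, was C-rich. The entries that passed on every array were thus mostly G-rich, and the C-rich ones read below the detection level of the ethanol array with that 1 exception. In a bulk extract, fewer cells that express a microRNA and less of it per cell cannot be told apart.

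The bright set gave much of the array's signal. Normalized intensity, in arbitrary units, reached 500 in 42, 44 and 40 of the 89 entries on the control, ethanol and acetaldehyde arrays (47.2%, 49.4% and 44.9%), against 11.1% of all probes on each array. After subtraction of the empty-spot median, with values below it set to 0, the entries held 19.5%, 25.2% and 16.2% of the summed signal of all microRNA probes. In absolute terms that sum was 171342 in control, 177294 after ethanol and 140550 after acetaldehyde, before any normalization. The other 1930 probes summed to 705913, 526581 and 725392. The ethanol array thus had 1.03 times the control signal over the entries and 0.746 times over the other probes, and the acetaldehyde array had 0.820 and 1.03 times. The 5 brightest entries carried 33.4%, 30.9% and 32.6% of the entries' own sum. Brightness depends on how a probe binds as well as on abundance, so the order of probes is not an order of microRNA amounts.

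Among the brightest, miR-3960 read 13157 in control cells, 16336 after ethanol and 11108 after acetaldehyde. In mouse osteoblasts it is known to act together with miR-2861 in differentiation. miR-6089, annotated on both the X and the Y chromosome, read 13016, 14255 and 9511 in the same order of arrays. miR-6090, which lies within ETS1, a transcription factor gene, read 7818, 8380 and 7818. miR-4516, within PKD1, the gene of polycystin-1, read 7909, 8769 and 6930. After normalization all of these were highest on the ethanol array, and miR-6090 had the same level on the other arrays. Without normalization between arrays, ethanol minus control was -0.13 for miR-6090 and -0.09 for miR-4516. Acetaldehyde minus control was then -0.20 for miR-6090. For miR-4516 the ethanol difference from control (0.15 ± 0.48) lay within its spot SD. Of its 4 ethanol spots, 1 read 5072 before normalization, below all its control spots, from 7983 to 9141. miR-3665, within SLAIN1, read 12486, 8003 and 9879, but its ethanol value rests on 1 dark spot: the 4 spot intensities there were 1364, 12826, 13944 and 12782. The plot of levels of the 24 brightest entries shows the width of that spot error beside the others.

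**Figure D1:**
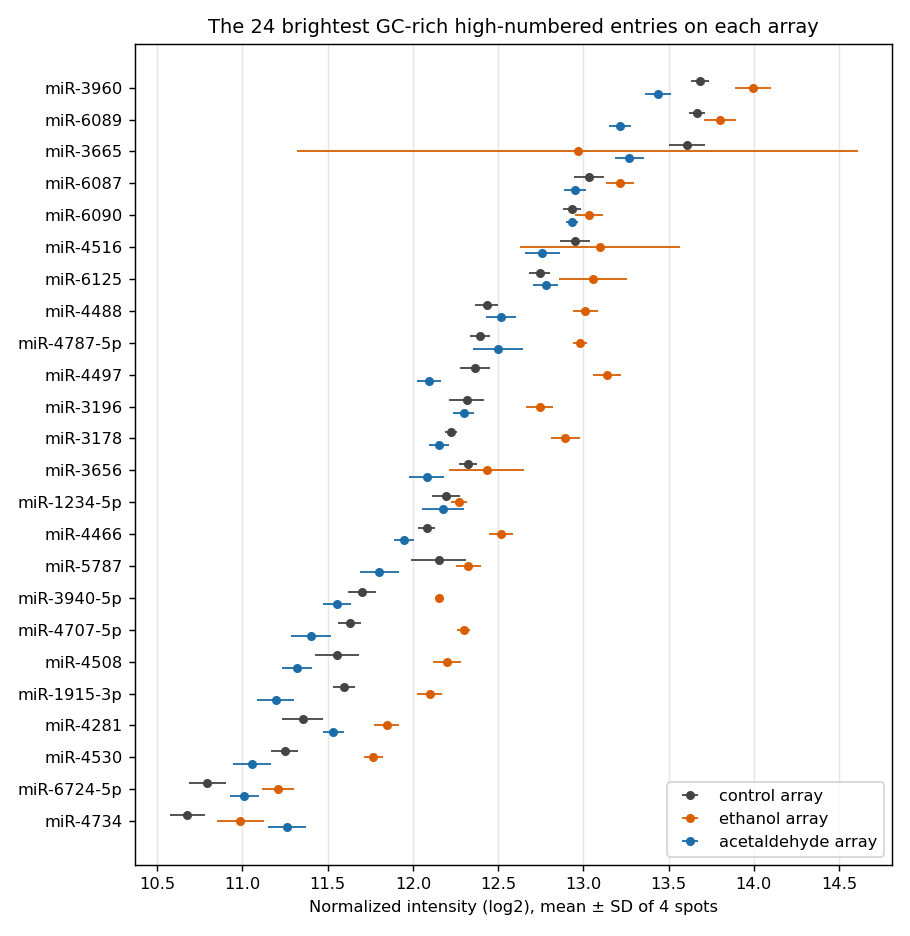
Normalized log2 intensity of the 24 brightest GC-rich high-numbered entries on the control, ethanol and acetaldehyde arrays; points are the mean of 4 spots and bars their SD on 1 array per group. Most ethanol points lie to the right of the other arrays' points, and the wide ethanol bar of miR-3665 comes from 1 spot that read 1364 where the others read at least 12782.

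Ethanol against control asks which microRNAs differ after long exposure of breast epithelial cells to ethanol. Relative to the other probes, the entries were higher on the ethanol array. Over the 48 detected on both arrays the median log2 difference was 0.36, with the middle of the distribution between 0.09 and 0.53, against 0.00 over all 347 probes detected on both. 39 of the 48 lay above 0 and 9 below. Among the 9 is miR-3665, which stood at 0.11 without its dark spot. The median taken at each spot position separately ranged from 0.35 to 0.40 (SD 0.03 over 4 positions). The differences were small: 10 entries were at least 1.5-fold higher (20.8%, against 8.65% of all probes tested) and 2 at least 1.5-fold lower (4.17%, against 3.46%). No entry reached 2-fold in either direction, where 0.865% of all probes did so upward and 0.288% downward. 34 entries were higher at all 4 spot positions (70.8%, against 32.3%) and 6 were lower at all 4 (12.5%, against 31.1%).

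The word higher is relative here, since each array was brought to the same distribution of intensities. Without normalization between arrays the entries' median was 0.07 and that of all detected probes -0.33, so the gap between them stayed while the entries themselves were near control. With no filter on detection, over all 89 entries, the median was 0.08 against -0.01 for all probes, a value that takes in the 41 entries not detected on the ethanol array.

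miR-4532 had the largest difference, with 698 in control cells, 1257 after ethanol and 836 after acetaldehyde, 1.80-fold above control with ethanol (log2 0.85 ± 0.18). miR-1237-5p, whose hairpin lies within RPS6KA4, a kinase gene, read 1499, 2652 and 1499, a log2 difference of 0.82 ± 0.11 with ethanol. Its acetaldehyde level equalled that of control after normalization, since its rank was the same on both arrays (125). Without normalization between arrays its acetaldehyde difference from control was -0.33. miR-2861 read 1326, 2324 and 1651 (0.81 ± 0.08). miR-3960 differed by 0.31 ± 0.08 in the same comparison. After normalization both lay above control by more than their spot SD. Without normalization between arrays miR-3960 differed by 0.05. Its ethanol spots, from 13080 to 15550, overlapped its control spots, from 12920 to 14165, before normalization.

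miR-1908, within FADS1, the gene of a fatty acid desaturase, read 601, 1037 and 484 (0.79 ± 0.32). miR-4486, within NAV2, read 782, 1337 and 781 (0.77 ± 0.12). miR-4497, within TRPV4, the gene of a cation channel, read 5279, 9018 and 4374 (0.77 ± 0.10). Of these, miR-4497 was the brightest, and its 4 ethanol spots, from 8058 to 9178, all lay above its 4 control spots, from 5516 to 6376, in intensity before normalization. miR-3178 (4786, 7616 and 4549) and miR-4707-5p (3165, 5037 and 2707) differed by 0.67 ± 0.05 and 0.67 ± 0.03. miR-4508 read 3007, 4711 and 2553 (0.65 ± 0.11). With miR-1469, named because it completes this count and chosen after its values were seen (1374, 2063 and 1603, 0.59 ± 0.07), these are the 10 entries past 1.5-fold. Each was higher with ethanol than on both other arrays.

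Other bright entries stood above control by less. miR-4488 (5530, 8261 and 5864) and miR-4787-5p, within DOCK3 (5385, 8075 and 5785), both differed by 0.58, just under the 1.5-fold line, with spot SDs of 0.10 and 0.05. miR-4466, within ARID1B, a gene of chromatin remodelling, read 4329, 5864 and 3953 (0.44 ± 0.03), and miR-6125, within USP15, a deubiquitinase gene, read 6857, 8528 and 7025 (0.31 ± 0.17). miR-6087 read 8380, 9511 and 7909 (0.18 ± 0.05). After normalization each of these was highest on the ethanol array, and none of their acetaldehyde levels differed from control by 1.5-fold. Without normalization between arrays miR-6087 stood at -0.06 for ethanol against control.

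Below control stood miR-4651, within POR, the gene of the electron donor of microsomal cytochrome P450 enzymes, with 1257, 727 and 555 (-0.79 ± 0.14 with ethanol). Its ethanol spots, from 640 to 784, lay below all control spots, from 1380 to 1596, before normalization. The other entry past 1.5-fold, miR-3665 (-0.64 ± 1.74), differed by 0.11 without its dark spot, which leaves 1 entry at least 1.5-fold lower. miR-6722-3p (2082, 1490 and 1409) differed by -0.48 ± 0.19. The near-identical miR-1268a and miR-1268b differed by -0.23 ± 0.16 and -0.25 ± 0.18.

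**Figure D2:**
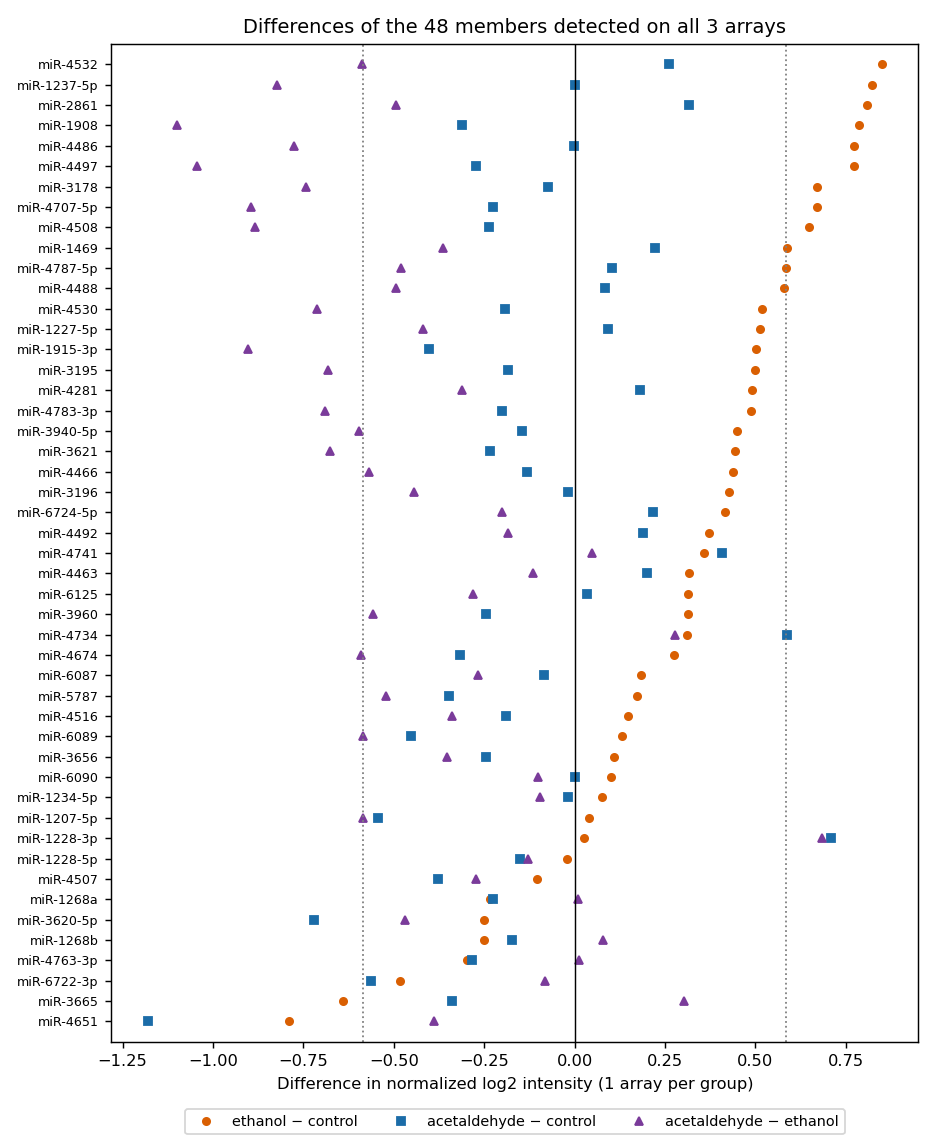
Log2 difference in normalized intensity for each of the 48 entries detected on all 3 arrays, ordered by ethanol minus control, with acetaldehyde minus control and acetaldehyde minus ethanol beside it; dotted lines mark 1.5-fold, and n = 1 array per group. Ethanol differences run from -0.79 to 0.85 with 39 of 48 above 0, and the comparisons that share an array are not independent of each other. miR-3665 lies below 0 with ethanol only through its dark spot.

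Within the entries, the ethanol difference went with C content. The 44 entries at 500 or more on at least 1 array were divided at 25% C, a split chosen after the values were seen. All 19 with C at 25% or more lay above 0, with a median of 0.52 and a range of 0.28 to 0.85, and 7 of them were at least 1.5-fold higher (36.8%, against 10.5% of all probes at that brightness). Of the 25 with less C, 17 lay above 0, with a median of 0.15 and a range of -0.79 to 0.81, and 3 were at least 1.5-fold higher (12%). miR-3665, with 22.2% C, is among these 25 and lay below 0 only through its dark spot. Within the first group miR-4492 reached 500 on the ethanol array alone, so the brightness limit favoured its place above 0. With 500 asked for on the control array, a limit added after seeing the data, 17 entries were left, of which 17 lay above 0, with a median of 0.58. In the first group miR-4532 (47.1% C) was the highest, and miR-4497 (35.3%) and miR-4707-5p (34.8%) also lay above the group's median. In the second, miR-6089 (16.7%, 0.13 ± 0.06) lay near the group's median and miR-4651 (15%) was the lowest. miR-2861 (21.1%) and miR-1908 (23.8%) had less than 25% C and a large difference. Across the 48 entries detected on all arrays the difference had a Spearman correlation of 0.61 and a Pearson correlation of 0.45 with C content, and of -0.43 and -0.25 with G content. Across the other 299 probes detected on all arrays the Spearman values were -0.17 for C and 0.27 for G. These correlations are across probes that share the same pair of arrays, and the probes are not independent replicates. Under the 17 settings, the main one included, the median of the first group stayed between 0.30 and 0.97, and that of the second ran from -0.08, without normalization between arrays, to 0.59.

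**Figure D3:**
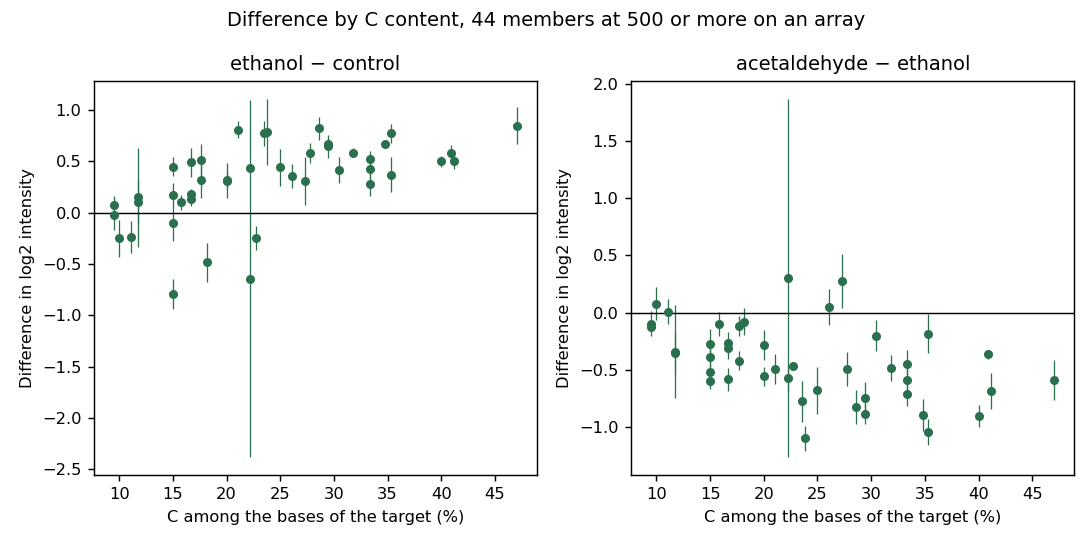
Log2 difference against the share of C in the target sequence for the 44 entries at 500 or more on at least 1 array, for ethanol minus control (left) and acetaldehyde minus ethanol (right); bars are the SD over 4 spot positions, 1 array per group. All 19 entries at 25% C or more lie above 0 on the left, and the longest bar is miR-3665 with its dark spot.

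Acetaldehyde against control puts the same question for the oxidation product, against the same single control array. The entries as a group stood close to control, and bright and dim ones lay on opposite sides. Over the 83 detected on both arrays the median log2 difference was 0.12 against -0.07 over all 774 probes detected on both, with 48 above 0 and 33 below. The median at each spot position ranged from 0.01 to 0.21 (SD 0.10 over 4 positions). Over the 48 that were also detected on the ethanol array the median was -0.16, with 14 above 0 and 32 below, and all 347 probes detected on 3 arrays had -0.09. Past 1.5-fold, 5 entries were higher (6.02%, against 7.75% of all probes tested) and 2 lower (2.41%, against 8.14%), so neither share exceeded its background. 1 entry was at least 2-fold lower (1.20%, against 1.81%) and 0 at least 2-fold higher (against 1.03%). 35 entries were higher at all 4 spot positions (42.2%, against 26.9%) and 23 lower at all 4 (27.7%, against 37.5%).

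The scale decides the sign of this median. Scaling on the spike probes moved it to -0.67 and that of all detected probes to -0.62, and without normalization between arrays they were 0.02 and 0.07. The share at least 1.5-fold higher moved too: it was 28.9% without normalization, against 13.0% of all probes, and 33.7% in the deposited table, against 17.2%.

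miR-4651 was the entry past 2-fold, at 555 against 1257 (-1.18 ± 0.16). Its 4 acetaldehyde spots, from 509 to 588 before normalization, lay below its 4 control spots. Under the 17 settings its difference stayed between -2.14 and -1.14. miR-3620-5p, within ARF1, a gene of vesicle transport, read 782 against 1289 (-0.72 ± 0.13). miR-6722-3p (-0.56 ± 0.13), miR-1207-5p, within the long noncoding RNA gene PVT1 (-0.54 ± 0.22), and miR-6089 (-0.45 ± 0.08) followed. These lower values exceeded the spot SD in each case.

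On the other side, miR-4734 read 2458 against 1637 (0.59 ± 0.09) and was the one bright entry at least 1.5-fold higher. Its sign turned with spike scaling, to -0.29. miR-4741, within RBBP8, a DNA repair gene, read 612 against 462 (0.41 ± 0.13), and it turned to -0.50 with spike scaling. miR-1228-3p, from a hairpin in LRP1, the gene of a lipoprotein receptor, read 454 against 278 (0.71 ± 0.27).

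The other entries above 1.5-fold were dim and not detected on the ethanol array. miR-3181, within CYLD, a deubiquitinase gene, read 306 against 167 on the control array (0.88 ± 0.14). miR-4783-5p, within PROC, read 262 against 165 (0.66 ± 0.29), and miR-4749-3p, within PTOV1, read 310 against 198 (0.64 ± 0.28). These levels lie near the detection level of the control array. The 13 C-rich entries, of which miR-1228-3p is one and miR-4749-3p and miR-4767 (296 against 218, 0.44 ± 0.30) are others, were all higher at all 4 spot positions, with a median of 0.44. The 51 detected C-rich probes outside the set had a median of 0.27, and 32 of them were higher at all 4 positions. With spike scaling the 13 had a median of -0.02, so their distance from control depends on the scale. 6 entries, miR-2277-5p among them, passed detection after acetaldehyde but not in control cells. The lower bound of their fold was above 1 in 4 and at most 1.43.

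Acetaldehyde against ethanol compares the exposures at the doses given above, which differ from each other. The bright entries were lower on the acetaldehyde array. Over the 48 entries detected on both arrays the median log2 difference was -0.46, against -0.10 over all 347 probes detected on both, with 7 above 0 and 41 below. One of the 7 is miR-3665, which stood at -0.35 without its dark spot. The median at each spot position ranged from -0.48 to -0.41 (SD 0.03 over 4 positions). 15 entries were at least 1.5-fold lower (31.2%, against 17.9% of all probes tested) and 1 at least 1.5-fold higher (2.08%, against 14.7%). 2 entries were at least 2-fold lower (4.17%, against 4.32%) and 0 at least 2-fold higher (against 2.02%). 38 entries were lower at all 4 spot positions (79.2%, against 45.2%) and 2 higher at all 4 (4.17%, against 31.4%). The ethanol array enters this comparison and that with control, so the pair of results is not independent. Without a detection filter the median over all 89 entries was 0.01, the same as over all probes.

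The entries past 2-fold were miR-1908 (484 against 1037, -1.10 ± 0.11) and miR-4497 (4374 against 9018, -1.04 ± 0.11). miR-1915-3p, reported to lower BCL2, a survival protein, in human colorectal cancer cells, read 2343 against 4384 (-0.90 ± 0.10). Its control level was 3099, between the exposed ones. miR-4707-5p (2707 against 5037, -0.90 ± 0.14), miR-4508 (2553 against 4711, -0.88 ± 0.09) and miR-1237-5p (1499 against 2652, -0.82 ± 0.15) were next. The spots of miR-4497 on the 2 arrays did not overlap before normalization, with 4061 to 4432 after acetaldehyde. The split by C content was chosen after the values were seen, and the ethanol array enters here too, so it gives no independent result. The 19 bright entries at 25% C or more had a median of -0.59, with 17 below 0. At least 1.5-fold lower were 11 of the 19 (57.9%, against 18.2% of all probes at that brightness). With 500 asked for on the control array, 17 entries were left, with a median of -0.68 and 16 below 0. The 25 with less C had a median of -0.34, with 22 below 0 and 3 at least 1.5-fold lower (12%). Among the 25, miR-3665 lay above 0 only through its dark spot.

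miR-1228-3p was the one entry at least 1.5-fold higher (454 against 282, 0.68 ± 0.14), and miR-4734 followed at 0.28 ± 0.24. Of the 41 entries detected after acetaldehyde but missing from the ethanol detections, 6 had a lower bound above 1, at most 1.14-fold. Those 41 entries have no measured difference from ethanol.

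Within the set, seeds were mostly private. The 89 entries held 83 different seeds, and 6 seeds were shared by 2 entries each. miR-1268a and miR-1268b, with the seed GGGCGUG, share 18 bases in a row and differed by -0.23 and -0.25 with ethanol, -0.22 and -0.17 with acetaldehyde against control. These near-identical probes gave the same sign in each case, but the acetaldehyde differences lay within their spot SDs (0.26 and 0.22). With acetaldehyde neither probe was lower than control at all 4 spot positions. miR-1237-5p and miR-4488 share the seed GGGGGCG, and both were higher with ethanol, by 0.82 ± 0.11 and 0.58 ± 0.10. With acetaldehyde they were close to control (0.00 and 0.08), but at -0.33 and -0.30 without normalization between arrays. miR-3940-5p and miR-4507 share UGGGUUG but lay on opposite sides with ethanol, at 0.45 ± 0.10 and -0.10 ± 0.17. The value of miR-4507 lay within its spot SD of control. miR-3196, within BIRC7, a gene of an inhibitor of apoptosis, shares GGGGCGG with miR-3180-3p, and differed by 0.43 ± 0.10, while miR-3180-3p was not detected on the ethanol array. The same holds for miR-6722-3p (-0.48 ± 0.19) and its partner miR-1909-3p, with GCAGGGG. Some entries share a seed with probes outside the set, such as miR-1908 with miR-663a and miR-4651 with miR-608. miR-4516 does so with miR-4434 and miR-5703. The share of probes with a shared seed was not computed over all probes.

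Shared stretches beyond the seed bear on how far entries count as separate measurements. Of 1128 pairs of the 48 entries, 11 shared 10 or more bases in a row. miR-4508 and miR-4492 share 15 bases, and differed by 0.65 ± 0.11 and 0.37 ± 0.17 with ethanol. miR-4492 is named for this overlap, after its values were seen. miR-3620-5p and miR-4507 share 14 bases, and were -0.72 ± 0.13 and -0.38 ± 0.22 with acetaldehyde against control. Cross-binding between such probes was not tested.

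Arms of one hairpin can be read against each other in a few cases. The hairpin of miR-1228 gave a G-rich 5p arm, at 1264, 1244 and 1138, and a C-rich 3p arm, at 278, 282 and 454. Against control, the 5p arm stood at -0.02 ± 0.14 after ethanol and -0.15 ± 0.13 after acetaldehyde, and the 3p arm at 0.03 ± 0.18 and 0.71 ± 0.27. With ethanol both arms lay within their spot SD of control, and with acetaldehyde they lay on opposite sides of it, each by more than its spot SD. The mirtron list, 22 probes of the miR-1224 to miR-1238 range known as short intronic hairpins, was chosen with earlier results known and includes 7 of the entries. With ethanol, 5 of these 7 were detected, with a median of 0.08 and 1 at least 1.5-fold higher (miR-1237-5p; 20.0%, against 8.65% of all probes). Of the whole list 10 were detected, with a median of 0.05, and 3 were at least 1.5-fold higher. With acetaldehyde against control 6 were detected, with a median of 0.05. miR-1227-5p read 904, 1289 and 963 and differed by 0.51 ± 0.16 with ethanol, and miR-1234-5p read 4685, 4939 and 4623 and differed by 0.08 ± 0.09.

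The parts of the rule were varied one at a time. The 14 GC-rich probes numbered under 1200 had a median of 0.49 with ethanol over the 6 detected, close to the 0.36 of the entries. Probes numbered 1200 or more with less than 75% G plus C had -0.01 over 128, and older probes with less than 75% had -0.05 over 165. For acetaldehyde against ethanol the same sets had -0.36, -0.17 and 0.16, beside -0.46. Among probes at 500 or more on at least 1 array, those outside the set had -0.09 with ethanol (203 probes) and the entries 0.39 (44). At the edge of the rule, at 75%, stood miR-3940-5p (0.45 with ethanol), miR-4507 (-0.10) and miR-1228-3p (0.03). Just outside it stood miR-4632-5p (-0.05) and miR-3663-3p (-0.55), both at 73.9%, and miR-3141 (-0.15) at 73.7%. With the minimum at 70% the median with ethanol was 0.28, and at 80% it was 0.42.

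**Figure D4:**
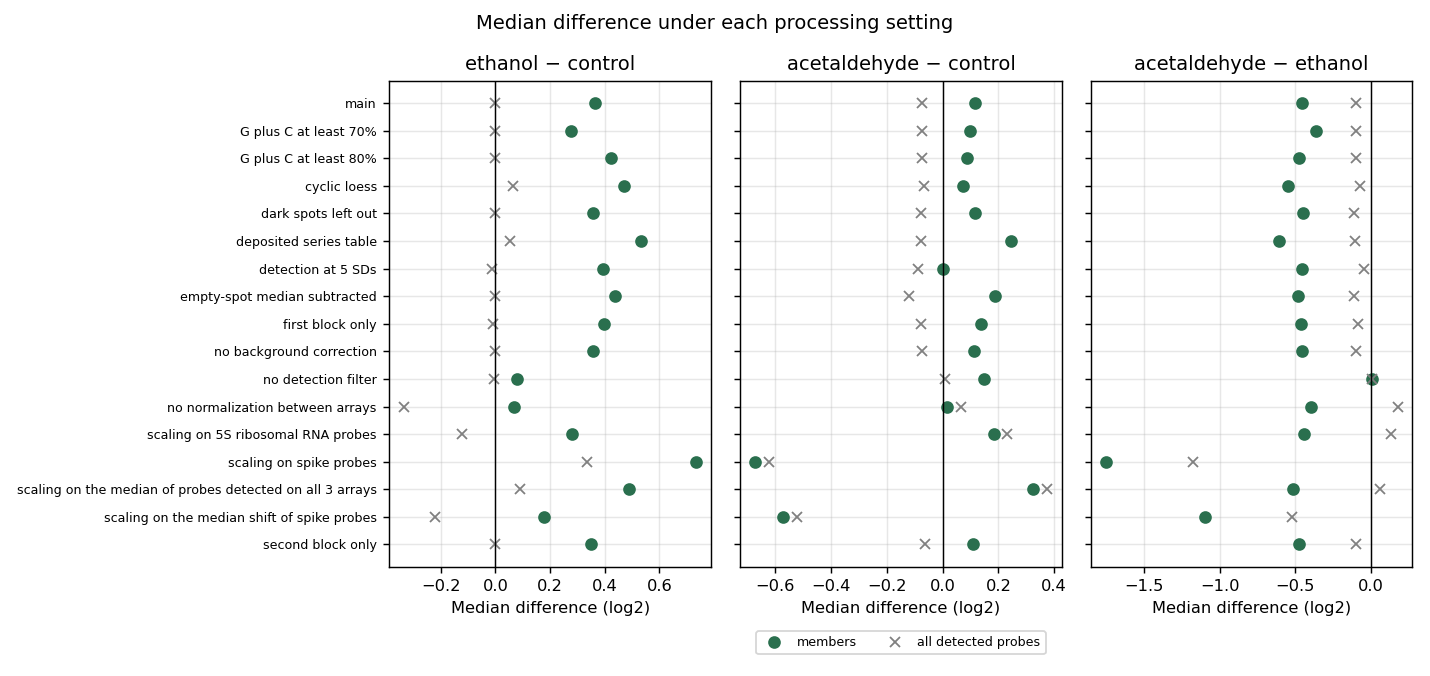
Median log2 difference of the detected entries and of all detected probes under each of 17 processing settings, for the 3 comparisons; 1 array per group, so the points have no replicate error. With ethanol the entries lie above all probes in every setting drawn, while for acetaldehyde against control both medians shift with the scaling and the entries' median turns from 0.12 to -0.67 with spike scaling.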

How the data were processed

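MicroRNAs were measured on 3 one-colour Cy5 arrays of MCF12A cells, 1 per group, from 2 µg of total RNA each, per the labels' protocols. The deposited spot files give the median intensity of each spot, which per the file headers is not background subtracted or normalized. How the authors normalized the linear intensities of their deposited table, used as an alternative, was, like the scanner, image software and registry release, not given in the sources used here.

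Spots were background corrected with normexp (offset 50, all spots) in limma 3.58.1 (R 4.3.3), taken to log2 from the deposited intensities, averaged over 4 spots and quantile normalized over 2019 microRNA probes. The background correction and normalization were tested on simulated data. Further steps used Python 3.11.15, pandas 2.3.3 and NumPy 2.4.6. Detection required a mean over a probe's spots of more than the empty-spot median (1368 spots) plus 3 SDs, and 50% or more of the spots past it. Differences are described by fold (1.5 or 2) and by sign at all 4 spot positions, among probes detected on both arrays. The number of arrays limits the precision. A spot was dark when under 50% of its probe's median net signal.

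The members, lists and tests were chosen with earlier results of these data known. Named were the 15 brightest members detected on all 3 arrays, the 5 highest and 5 lowest differences per comparison, members with a dark spot, members of shared seeds, the 2 brightest per base class and detected mirtrons. Alternatives were the between-array scaling, background correction, detection filter, blocks of spots, dark spots, base content minimum and the deposited table. Spike scaling used the median level of the detected spike probes on each array. The spike shift used the median of each spike probe's deviation from its own mean over the arrays, so the 2 scalings can differ. A scaling on the median shift of spike probes and the split of bright members by C content, with its brightness limit, were added after seeing the data. One target sequence of a bright member is not reported here.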

Additional observations from a re-analysis of the deposited data

How the results depend on the processing

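Each value rests on 1 array per group, so the spread between cultures is unknown, and the alternatives show processing only. No paired analysis was possible because each group had 1 array, and for the same reason no array could be left out in turn. The entries' median with ethanol against control stayed above 0 and above that of all detected probes under all 16 alternatives, while the other medians turned sign under some. Brackets after a count give the share of all tested probes past 1.5-fold at that setting. The cause of these moves was not tested, apart from what a setting changes by construction. Detection is limited by the level set from the ethanol array's empty spots, which 41 of 89 entries did not pass. Whether these entries were absent, lower or masked there was not tested.

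For ethanol against control the median (0.36) was 0.28 with a G plus C minimum of 70%, 0.42 with 80%, 0.47 with cyclic loess, 0.53 in the deposited table, 0.39 with detection at 5 SDs, 0.44 with the empty-spot median subtracted and 0.40 with the first block only. It was 0.0798 with no detection filter, 0.0663 without normalization between arrays, 0.28 with 5S ribosomal RNA scaling, 0.74 with spike scaling, 0.49 with scaling on the median of detected probes and 0.18 with scaling on the median shift of the spikes. The count at least 1.5-fold higher (10 of 48) was 16 with cyclic loess (11.5%), 21 in the deposited table (14.1%), 0 without normalization (1.44%), 32 with spike scaling (24.8%), 20 with median scaling (13.0%) and 2 with the spike shift (2.59%). The count lower (2) was 1 with cyclic loess (3.46%), with dark spots left out (2.88%), in the deposited table (4.03%), with median scaling (2.59%) and with the second block only (3.75%), 7 without normalization (23.6%), 0 with spike scaling (0.576%) and 4 with the spike shift (13.0%).

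For acetaldehyde against control the median (0.12) was 0.25 in the deposited table, 0.00 with detection at 5 SDs and 0.33 with median scaling, and it reversed to -0.67 with spike scaling and -0.57 with the spike shift. The count higher (5 of 83) was 9 of 136 with a minimum of 70% (7.75%), 28 in the deposited table (17.2%), 27 with the empty-spot median subtracted (18.7%), 24 without normalization (13.0%), 32 with 5S scaling (22.7%), 36 with median scaling (34.0%) and 0 with spike scaling or the spike shift (0.129% in both). The count lower (2) was 5 with the empty-spot median subtracted (24.5%), 45 with spike scaling (53.6%) and 40 with the spike shift (45.2%).

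For acetaldehyde against ethanol the median (-0.46) was -0.36 with a minimum of 70%, -0.55 with cyclic loess, -0.61 in the deposited table, -0.40 without normalization, -1.76 with spike scaling, -0.51 with median scaling and -1.10 with the spike shift, and it reversed to 0.009 with no detection filter. The count lower (15 of 48) was 23 with cyclic loess (20.5%), 26 in the deposited table (23.3%), 47 with spike scaling (89.9%) and 40 with the spike shift (43.2%). The count higher (1) was 2 with a minimum of 70% (14.7%) or the first block only (13.8%), 9 of 89 with no detection filter (4.95%), and 0 with a minimum of 80% (14.7%), detection at 5 SDs (16.4%), spike scaling (0%) or the spike shift (1.44%).

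With spike scaling the C-rich entries against control turned to -0.0192 and those in neither base class to -0.15 (-0.0529 with the spike shift) with acetaldehyde. The latter were also 0.32 against ethanol and 0.00 (-0.0011) for ethanol against control with no detection filter. Bright entries under 25% C were -0.0829 with ethanol without normalization. miR-4734 turned to -0.29 with spike scaling and -0.18 with the spike shift (acetaldehyde against control), and miR-1228-3p to -0.35 with spike scaling (acetaldehyde against ethanol). Of the remaining values, 1658 for single entries and groups and 82 for the medians and counts above moved by less than the spot error or by under 1.5 times, and 686 for single entries and groups moved by more. The sign turned in 63 of those 686, of which 34 came with a spike scaling and 40 belong to acetaldehyde against control. Among them, with spike scaling, miR-2861 (0.32) turned to -0.78 and miR-4741 (0.41) to -0.50 for acetaldehyde against control, and miR-4734 (0.28) to -1.10 for acetaldehyde against ethanol.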
